A study of Sus scrofa with 6 samples.

Results

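Cycling T cells are T cells caught while they copy their DNA or divide, and 193 cells of the piglet ileum, of 76099 in all, met a rule set to find them. A barcode counted as a cell when it held at least 1000 unique molecular identifiers (UMIs, each marking 1 captured transcript) and at least 500 genes. It counted as a T cell when CD3E and CD3G, chains of the CD3 complex that carries the signal of the T cell receptor, gave at least 2 UMIs together while the B cell genes MS4A1 and PAX5 gave 0. A T cell counted as cycling when TOP2A, a topoisomerase that untangles replicated DNA, and MKI67, which coats the chromosomes of dividing cells, gave at least 2 UMIs together. The 193 cells were thus chosen by their measured UMIs of CD3E, CD3G, MS4A1, PAX5, TOP2A and MKI67, out of 4841 T cells, and were compared with the 4448 T cells that held 0 UMIs of TOP2A and MKI67. The other 200 T cells held 1 UMI and entered neither class. In Sscrofa11.1, CD3E lies on chromosome 9 at 45619730 to 45633972, CD3G beside it at 45645243 to 45656779, TOP2A on chromosome 12 at 22001300 to 22028452 and MKI67 on chromosome 14 at 137266622 to 137296312.

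The cells came from ileal mucosa of male piglets of Large White sows, fed on their mothers' milk, taken apart with EDTA and TrypLE and run as 1 library at each of the ages day 0, 1, 3, 7, 14 and 21. No group had a treatment or a genetic change, so age was the only label that differed. The methods of the study give several piglets per age, and the files hold no mark that ties a barcode to a piglet. EDTA loosens the epithelium, so the T cells are those that came off in its fractions, and the description of the series names the cecum where the sample labels name the ileum.

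T cells multiply when their receptor meets antigen, or when cytokines such as interleukin 2, 7 and 15 act on them, and a dividing T cell switches from the quiet state of a naive cell to one that builds nucleotides, histones and a mitotic spindle. The gut lining holds CD8 T cells within the epithelium, while CD4 helper cells gather in the lamina propria and in Peyer's patches, where follicular helper T cells aid B cells. PDCD1 and LAG3 encode inhibitory receptors that activated T cells put on their surface, and both are used as marks of stimulated cells.

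The T cell label was checked with genes that the gate did not read. The 11 detected genes of the T cell receptor complex and its nearest kinases, among them CD247, LCK and LAT, summed to between 2.29 and 19.9 UMIs per 10000 UMIs of the cycling T cells of a library, against 7.73 to 20.3 in non-cycling T cells and 0.694 to 2.21 in cycling B cells. The lowest value was that of day 0, 2.29, which became 8.04 without the 16 cells of that age that held epithelial RNA. Those 16 cells together stood at 1.13, under the 1.31 of day 0 barcodes with 100 UMIs or fewer, which hold free RNA. That sum is weighted by the deepest cells, and the 16 were mixed, since 1 of them held 34 CD3 UMIs in 12902 and another 3 in 112713. All 16 are called cycling T cells here by the rule alone. Cycling B cells here are the 13078 barcodes with at least 2 UMIs of MS4A1 and PAX5, 0 of CD3E and CD3G and at least 2 of TOP2A and MKI67, and they serve as cells that should lack T cell transcripts. Both gate genes were present in 137 of the 193 cells, TOP2A alone in 38 and MKI67 alone in 18. Cycling T cells held a median of 10148 UMIs, non-cycling T cells 3729.5 and cycling B cells 6809.

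The division gate was met exactly, at 2 UMIs, by 41 cells. Those 41 cells held 56.2 UMIs per 10000 of the G2/M genes, a list of 52 genes of the late cycle from Seurat read without TOP2A and MKI67. The 200 T cells just outside, at 1 UMI, held 30.8, and T cells at 0 UMIs held 16.5. The 32 cells at 3 UMIs held 91.3 and the 10 cells at 4 UMIs 51.3, so the level did not climb at each step above the gate. Of the 193 members, 5 lay below the median of non-cycling T cells, 15.2 UMIs per 10000, so the gate also took in a few cells low in late cycle transcripts.

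Epithelial RNA stood in part of the cycling T cells of the first ages. On day 0, 16 of the 35 cells held at least 2 UMIs of EPCAM, KRT8, KRT18 and VIL1, genes of the gut epithelium, with 2 to 373 UMIs each. These 16 cells carried 83.3% of the UMIs of the day 0 cycling T cells, and their CD3E and CD3G stood at 1.44 UMIs per 10000, against 10.7 in the other 19 cells. On day 1 there were 5 such cells of 31, with 26.9% of the UMIs, and on day 7 there were 2 of 58. None of the 69 cycling T cells of days 3, 14 and 21 met that level. Over the 9 epithelial markers in the files, the summed level in cycling T cells ran from 0 on day 14 to 32.5 UMIs per 10000 on day 0, against 0.0239 to 15.6 in non-cycling T cells, and all 9 were detected. The sum was higher in cycling T cells in 3 libraries and lower in 3. APOA1, the 1 marker of the 9 that could be tested over all T cells, was higher in 0 of 6 libraries (log2 difference -2.46 in the edgeR test described below, adjusted p = 0.000316). An alternative chosen after seeing the data left out the cells of either class that held 2 or more epithelial UMIs, which leaves 170 cycling T cells. Its counts of calls stand beside some of the lists, and its levels on days 0 and 1 beside several of the genes given by age. Values with no such mention are over all T cells of the class.

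**Figure D1:**
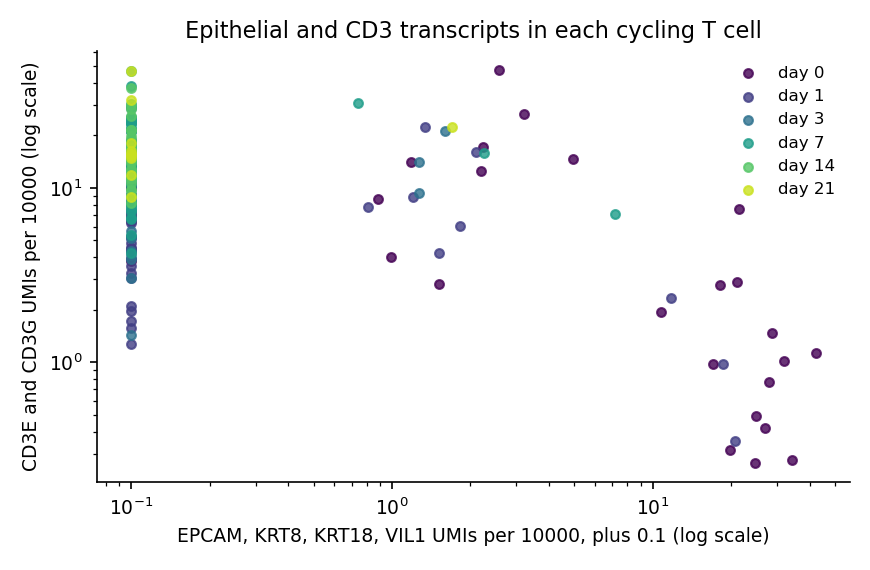
Each point is 1 of the 193 cycling T cells, coloured by age, with its UMIs of EPCAM, KRT8, KRT18 and VIL1 per 10000 on the x axis (plus 0.1, log scale) and its UMIs of CD3E and CD3G per 10000 on the y axis (log scale). The cells at the right, with many epithelial UMIs, are mostly those of days 0 and 1. Pooled, the 16 of day 0 stand at 1.44 UMIs of CD3 per 10000 and the other 19 at 10.7, while single cells of the 16 spread widely.

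The 14 B lineage markers that the gate did not use summed to 0.352 to 2.47 UMIs per 10000 in cycling T cells, 0.573 to 3.82 in non-cycling T cells and 17.1 to 50.5 in cycling B cells. CD79A, a chain of the B cell receptor complex, was at 0 in all 193 cells, and the other 13 markers were detected. The sum was lower in cycling than in non-cycling T cells in 5 of 6 libraries. At least 1 UMI of the wider set of 6 B cell genes was found in 63 of 193 cycling T cells and in 570 of 4448 non-cycling ones, and on day 7 in 50% against 32.2%, at median depths over all ages of 10148 and 3729.5 UMIs. For CD79B, the other chain of that complex, the mean share of cells with a UMI was 15.76% in cycling and 11.13% in non-cycling T cells, and 0.287% and 3.64% with each cell thinned to 1000 UMIs. The order of the CD79B share thus turned with depth, and no order is read from the unthinned shares. The gate had by then left out 46.2% of the barcodes past the CD3 and division gates for a UMI of MS4A1 or PAX5 and 11.0% of the others, so the low level is in part set by the choice of cells. Of 10 myeloid markers 6 were detected in cycling T cells, at 0 to 2.2 UMIs per 10000 in sum against 0.0478 to 5.31 in non-cycling T cells, with S100A8, S100A12, FCN1 and MARCO at 0. Of 10 stromal and endothelial markers 9 were detected, at 0 to 2.29 against 0.0325 to 1.4, with KDR at 0. Of 4 erythroid and mast cell markers 2 were detected, at 0 to 0.148 against 0.0461 to 13.8, with ALAS2 and CPA3 at 0. The parts of these cells in the results were not tested.

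The libraries held 77391932 to 100348769 UMIs each and gave 10836 to 15956 cells past the depth gate. Of the 76099 cells, 1344 carried a barcode found in another library too, 4 of them cycling T cells. The doublet caller Scrublet marked 1 cell at its automatic threshold, so it had not worked, and doublets were kept. When the highest scores were ranked out instead, at a rate of 0.8% per 1000 cells, the cells so ranked made up 53 of 193 cycling T cells and 347 of 4448 non-cycling T cells, and by age from 5 of 58 cycling T cells on day 7 to 14 of 23 on day 14. The share of doublets among the cycling T cells was not tested.

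Cycling made up a larger share of the T cells on days 3 and 7 than on days 0 and 1. Day 0 had 1.87% (35 of 1872 T cells, exact Clopper-Pearson 95% interval 1.31 to 2.59), day 1 had 1.88% (31 of 1653, 1.28 to 2.65) and day 3 had 10.0% (35 of 349, 7.09 to 13.7). Day 7 followed with 13.4% (58 of 432, 10.4 to 17.0), day 14 with 6.44% (23 of 357, 4.13 to 9.51) and day 21 with 6.18% (11 of 178, 3.12 to 10.8). The intervals of days 0 and 1 overlap each other and none of the later ages, those of days 3 and 7 overlap, and those of days 7 and 14 do not. The order of days 7 and 14 rests on the B cell rule. With barcodes that hold MS4A1 or PAX5 kept, an alternative added after seeing the data, day 7 had 16.7% (99 of 593, 13.8 to 19.9), day 14 had 18.6% (97 of 522, 15.3 to 22.2) and day 21 had 11.9%, and the intervals of days 7 and 14 overlap. These intervals cover counting error only, as do all others here, and with 1 library per age no difference between ages was tested. The mean over the 6 libraries was 6.64%.

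**Figure D2:**
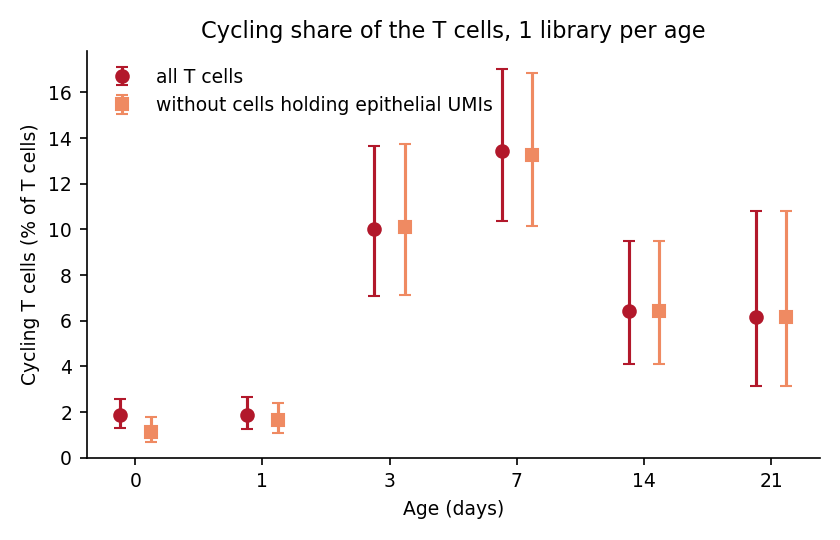
The share of T cells that were cycling (y axis, percent) is plotted by age in days (x axis) with exact 95% intervals of counting error, for all T cells (circles) and without cells holding epithelial UMIs (squares). The share is below 2% on days 0 and 1, 13.4% on day 7, the highest under this rule, and 6.18% on day 21. Day 14, at 6.44% here, is 18.6% and above day 7 when barcodes with MS4A1 or PAX5 are kept.

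Leaving out cells with epithelial UMIs put day 0 at 1.15% and day 1 at 1.64%, and changed no later age by more than its interval. With each T cell thinned to 1000 UMIs before the gate was read, the share read 0.427, 0.181, 4.01, 3.94, 0.84 and 3.37% from the youngest to the oldest age. Days 3 and 7 stayed above days 0 and 1 in that reading, and the order of days 3 and 7 turned, as it did without cells holding UMIs of further B genes (10.9% and 10.2%). Day 14 depended on the setting: without the ranked doublets it was 2.74% (1.26 to 5.14) and overlapped days 0 and 1, as it did when thinned (0.174 to 2.44). Day 21 overlapped both without the further B genes, at 4.55% (1.49 to 10.3), with the gate at 3 UMIs, at 4.49% (1.96 to 8.66), and under 25% mitochondrial UMIs, at 5.14% (2.38 to 9.54). Without the ranked doublets it overlapped day 1, at 4.79% (2.09 to 9.22). T cells as a whole went the other way, from 17.3% of all cells on day 0 and 14.4% on day 1 to 3.07%, 3.42%, 2.24% and 1.29% on days 3, 7, 14 and 21. Cycling T cells were thus 9.83% of all cells with 2 UMIs of TOP2A and MKI67 on day 0 and 0.302% of them on day 21, when 26.4% of all cells met that gate and 3394 of those 3648 cells were cycling B cells.

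The gate chose late cycle cells. G2/M genes made up 73.1, 97.8, 118, 130, 144 and 147 UMIs per 10000 in cycling T cells from day 0 to day 21, against 13.9 to 23.6 in non-cycling T cells and 88.7 to 162 in cycling B cells. The 43 G1/S genes, which prepare and run DNA replication, made up 20.3, 31.6, 47.9, 40.5, 49.9 and 35.9 in the same order, against 9.18 to 16.5 and 40.5 to 60.1. Both lists were higher in cycling than in non-cycling T cells in 6 of 6 libraries, which the choice of cells all but fixes, so no test is given. Barcodes with 100 UMIs or fewer, which hold free RNA, held 16.9 to 83.4 of the G2/M and 8.61 to 38.3 of the G1/S list. How far free RNA fed the division gate was not tested. Without the cells holding epithelial UMIs, G2/M genes in cycling T cells stood at 151 on day 0, the highest of the 6 ages, and at 107 on day 1, the lowest.

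Of the 193 cells, 164 held more G2/M than G1/S UMIs and 29 the reverse. G1/S genes were 24.4% of the UMIs of both lists in cycling T cells, 19.6 to 28.8% by library, against 39.1% in non-cycling T cells and 28.5% in cycling B cells. Of the non-cycling T cells, 3165 held more G2/M than G1/S UMIs and 873 the reverse. TOP2A and MKI67 are themselves genes of G2 and mitosis.

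**Figure D3:**
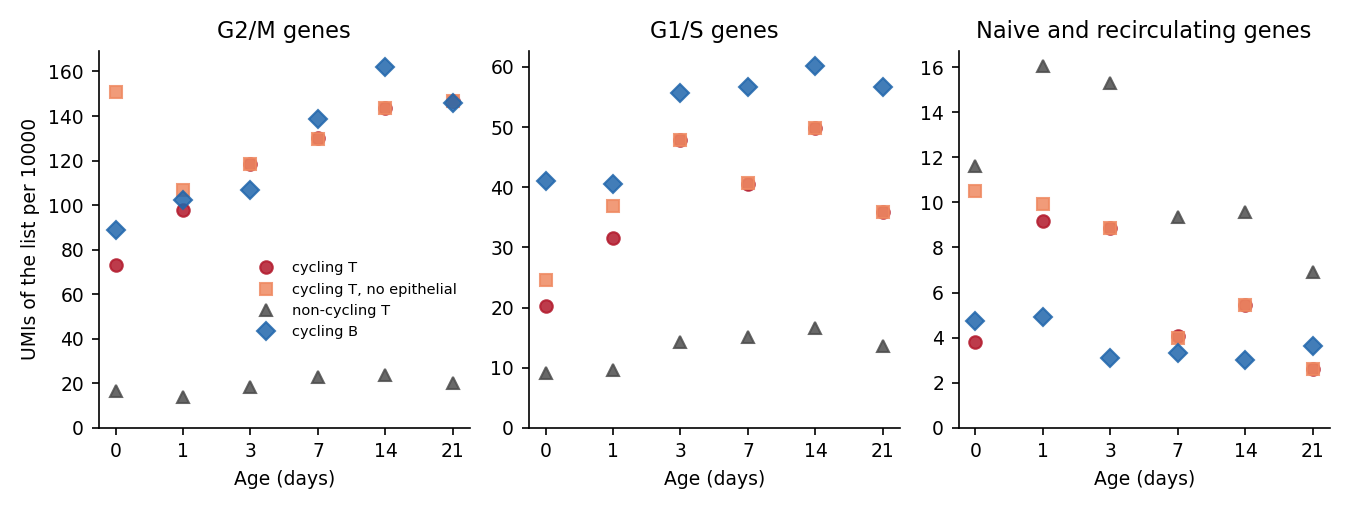
The summed UMIs per 10000 of the G2/M list, the G1/S list and the list of naive and recirculating T cell genes are plotted by age in days, 1 point per library, for cycling T cells (circles; squares without cells holding epithelial UMIs), non-cycling T cells (triangles) and cycling B cells (diamonds). Cycling T cells lie above non-cycling T cells for the cycle lists and below them for the naive list in every library.

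The division genes that lay highest above non-cycling T cells were those of the late cycle. A log2 difference below is that of an edgeR quasi-likelihood fit on UMIs summed per library and class, with the library as a block. The value after ± is the standard error implied by the F statistic of its test, the absolute log2 difference divided by the square root of F. CCNB2, the mitotic cyclin B2, differed by 5.81 ± 0.29, CDK1, its kinase, by 5.05 ± 0.22, and CCNA2, the cyclin of S and G2 phase, by 4.90 ± 0.27. Genes that act at the G1 to S step differed by less, with 2.01 ± 0.24 for CDK2 and 0.85 ± 0.14 for CDK4. Of the CDK inhibitors, CDKN2C lay 2.62 ± 0.25 and CDKN2D 1.41 ± 0.30 above non-cycling T cells. These values are a description, since the gate picks such cells.

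Of the 10 genes on no list that were called with the largest log2 difference upward and lay higher in all 6 libraries, 9 are named genes with known roles in the cell cycle. CCNF, a cyclin of the SCF ligase, led at 6.07 ± 0.42, followed by KIF15, a spindle motor, at 5.71 ± 0.35, and CCNB3 at 5.48 ± 0.53. BUB1B and SGO2, which guard the parting of chromosomes, and PLK1, the polo kinase, lay between 5.20 and 5.35. In the same range lay ASPM at the spindle pole, DEPDC1B, and FOXM1, the factor that switches on the G2/M genes. The 10th was LOC110261661 at 5.24 ± 0.31. Without cells holding epithelial UMIs, CCNB3, DEPDC1B and FOXM1 had too few UMIs to be fitted, and the other 7 lay between 5.16 and 6.34.

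Genes of the chromatin and cytoskeleton of dividing cells followed. All 12 that the files hold under the listed symbol were fitted, and all 12 lay higher in cycling T cells, at a median log2 difference of 2.21 against -0.05 over all genes tested. The division gate nearly fixes this too, so these values are a description and are given without a test. TUBB, the beta chain of the microtubules, differed by 2.46 ± 0.12, LMNB1, a lamina protein, by 2.88 ± 0.15, STMN1, which takes microtubules apart, by 2.27 ± 0.15, and EZH2, the methyltransferase that silences genes through H3K27, by 2.30 ± 0.17. TUBB stood at 5.59, 8.39, 11.8, 10.9, 12 and 15.9 UMIs per 10000 in cycling T cells from day 0 to day 21 and at 1.11, 1.47, 1.90, 1.99, 2.28 and 2.10 in non-cycling T cells. The lowest cycling value was above the highest non-cycling one, and TUBB stood at 10 and 9.94 on days 0 and 1 without cells holding epithelial UMIs.

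Cycling and non-cycling T cells were tested against each other over the 6 libraries with edgeR's quasi-likelihood test and Benjamini-Hochberg adjustment over 6692 genes. The fit left out the 6 gate genes alone, so cycle genes whose calls the choice of cells all but fixes are among those tested. At an adjusted p below 0.05, 12.1% of the genes tested were higher in cycling T cells (810) and 12.9% were lower (865). The 810 include 47 genes of the G2/M and 31 of the G1/S list. Without cells holding epithelial UMIs, 13.4% were higher (722 of 5377) and 14.3% lower (768). Counts of a list are to be read against these shares. Members held more UMIs per cell than the other T cells, so the test was also run on cells of either class within the same range of UMIs, which left out day 21 for want of cells and called 8.85% of 5762 genes higher and 6.68% lower. The range was shared but the depths were not equal. In the libraries kept, the cycling cells held 1.80 to 1.99 times the median UMIs of the non-cycling cells of their library within the range. This run is called the shared-range form here. The fits without cells holding further B genes and with the division gate at 3 UMIs also left out day 21, so 2 things changed in them at once.

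Of 18 genes of nucleotide synthesis in the files, 13 passed the filter on low counts, of which 8 were higher and 0 lower, and without cells holding epithelial UMIs 7 of 12 were higher. TK1, thymidine kinase, stood at 1.04, 2, 2.66, 3.47, 4.46 and 4.02 UMIs per 10000 from day 0 to day 21 against 0.0236, 0.0872, 0.267, 0.299, 0.281 and 0.215 in non-cycling T cells, with no overlap. On days 0 and 1 TK1 stood at 2.37 and 2.46 without cells holding epithelial UMIs, against 0.0203 and 0.0834. The log2 difference was 4.05 ± 0.22 for TK1 and 2.62 ± 0.17 for DUT, which keeps uracil out of DNA. Both are genes of the DNA copying step itself, which the division gate nearly fixes, and are given without a test.

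Of the folate enzymes, MTHFD2, a mitochondrial one, rose by 1.47 ± 0.24 (edgeR adjusted p = 0.000177) and MTHFD1, its cytosolic partner, by 1.29 ± 0.21 (edgeR adjusted p = 0.000224), each in 6 of 6 libraries. In the shared-range form 6 of 12 genes of the list were higher, MTHFD2 and MTHFD1 among them at 1.69 and 0.93. SHMT2, GART and ADSL, of the same list, had log2 differences of 0.04, 0.01 and -0.35, none of them past the test.

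Genes of glycolysis rose by less. Of 15 in the files 13 were tested, of which 8 were higher and 1 lower, and without cells holding epithelial UMIs 10 were higher and 0 lower. PFKP, a phosphofructokinase, stood at 0.374, 0.711, 0.911, 1.31, 1.27 and 2.32 UMIs per 10000 from day 0 to day 21 against 0.255, 0.270, 0.348, 0.526, 0.708 and 0.788 in non-cycling T cells. Cycling cells were higher at each age, while the ranges of the ages overlap. The log2 difference of PFKP was 1.08 ± 0.17 (edgeR adjusted p = 0.000143) and that of PKM, pyruvate kinase, 0.73 ± 0.12 (edgeR adjusted p = 0.000189).

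PGAM1 rose by 0.72 ± 0.14 and GAPDH by 0.46 ± 0.11, with edgeR adjusted p-values of 0.00104 and 0.00536. SLC2A3, a glucose transporter of T cells, was the list's lower gene at -0.81 ± 0.26 (edgeR adjusted p = 0.0327), and missed the threshold without cells holding epithelial UMIs at -0.52 (edgeR adjusted p = 0.0673). In the shared-range form 3 of the 13 were higher, PFKP at 0.90, PKM at 0.45 and PGAM1 at 0.45, so most of the list's calls were lost there. Of 7 nutrient transporters in the files 6 were tested and SLC1A5, a glutamine carrier, alone rose, at 0.80 ± 0.28 (edgeR adjusted p = 0.0426; 0.43 and adjusted p = 0.181 without cells holding epithelial UMIs). Of 12 ribosome biogenesis genes 11 were tested and GAR1 alone rose, at 0.52 ± 0.17 (edgeR adjusted p = 0.0373), a call lost without those cells (adjusted p = 0.19). NCL, the nucleolar protein nucleolin, had 0.31 with no call (edgeR adjusted p = 0.183), and 0.36 with a call in the shared-range form (edgeR adjusted p = 0.0254), while NPM1 had 0.30 and no call in either.

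**Figure D4:**
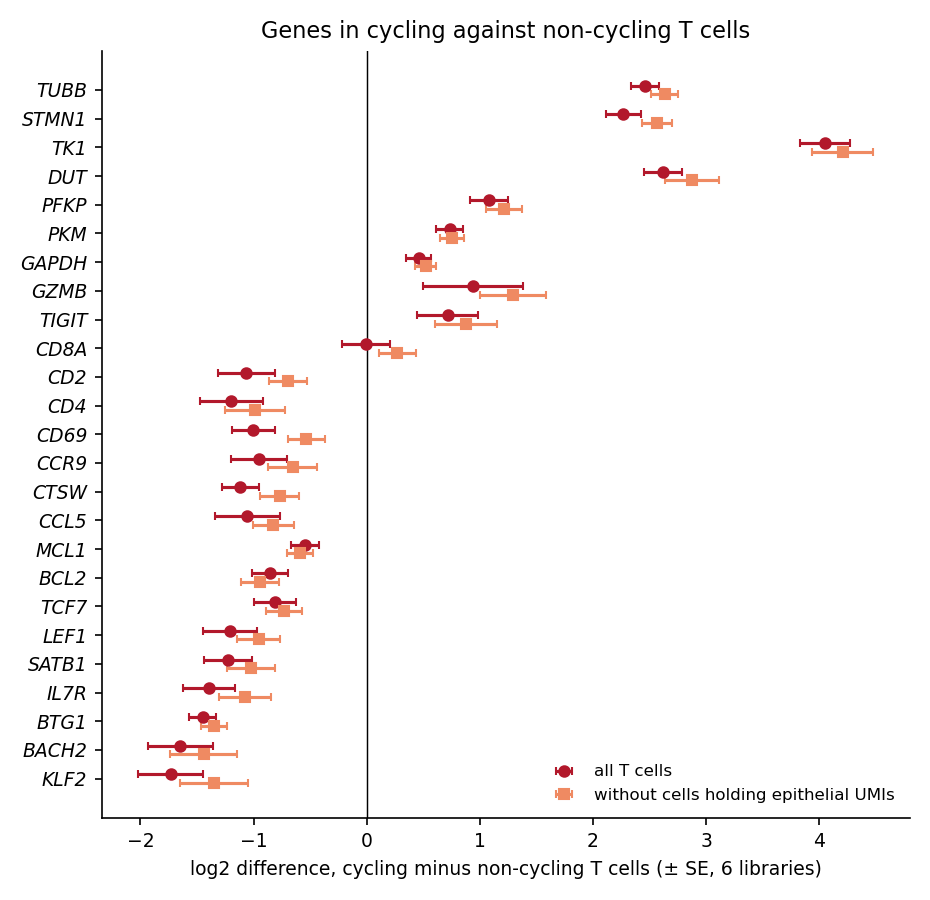
The log2 difference between cycling and non-cycling T cells (x axis, edgeR estimate over 6 libraries with the standard error its F statistic implies) is shown for 25 genes of the lists, for all T cells (circles) and without cells holding epithelial UMIs (squares). Division and nucleotide genes lie right of 0, with TK1 at 4.05, and BTG1, BACH2, KLF2 and IL7R lie left of it, between -1.39 and -1.73 in the fit of all T cells.

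Genes of the naive and recirculating state fell together. Of 10 on the list, all in the files, 9 were tested and 9 were lower, at a median log2 difference of -1.23, and without cells holding epithelial UMIs 8 of 9 were lower at a median of -1.02. The summed level of the list in cycling T cells was 0.327 to 0.578 times that in non-cycling T cells over the 6 libraries, and 0.38 to 0.753 times without cells holding epithelial UMIs. KLF2, the factor that keeps T cells quiet and moving through the blood, stood at 1.04, 1.27, 0.936, 0.231, 0.893 and 0 UMIs per 10000 from day 0 to day 21, against 3.64, 2.73, 2.04, 3.09, 1.18 and 0.382 in non-cycling T cells. Cycling cells were lower at each age, though a count of 0 on day 21 allows up to 0.464. KLF2 stood on day 0 at 3.89 against 4.21 and on day 1 at 1.43 against 2.92 without cells holding epithelial UMIs. Its log2 difference was -1.73 ± 0.28 (edgeR adjusted p = 0.000225), or -1.35 without cells holding epithelial UMIs (edgeR adjusted p = 0.00216).

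IL7R, the receptor for the survival cytokine interleukin 7, showed the same direction. It stood at 1.01, 3.02, 1.01, 0.570, 0.235 and 0 UMIs per 10000 in cycling T cells and at 2.85, 5.18, 2.82, 0.766, 2.06 and 0.501 in non-cycling T cells. On day 0 the classes were close without cells holding epithelial UMIs, at 3.56 and 3.64. The log2 difference of IL7R was -1.39 ± 0.23 (edgeR adjusted p = 0.000232) and that of S1PR1, the receptor that leads T cells out of tissue, -1.35 ± 0.25 (edgeR adjusted p = 0.00068). S1PR1 was higher in cycling cells on day 21, at 0.464 against 0.191. BACH2, LEF1, SATB1 and TCF7, transcription factors of naive and stem-like T cells, differed by -1.65 ± 0.29, -1.21 ± 0.24, -1.23 ± 0.21 and -0.81 ± 0.19. In the shared-range form 4 of 9 genes were lower, IL7R, S1PR1, LEF1 and TCF7, at -0.93, -0.93, -0.93 and -0.41. KLF2 missed the threshold there at -0.80 (edgeR adjusted p = 0.0581), as did BACH2 at -0.89 (edgeR adjusted p = 0.0724).

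BTG1, an antiproliferative gene of resting lymphocytes, stood at 3.68, 4.42, 2.17, 1.91, 3.43 and 2.63 UMIs per 10000 from day 0 to day 21 in cycling T cells and at 10.5, 8.85, 5.21, 6.06, 9.13 and 7.04 in non-cycling T cells. The highest cycling value was below the lowest non-cycling one. Without cells holding epithelial UMIs the classes still differed that way on day 0, at 6.46 against 12.1, but the ranges of the ages overlap. Its log2 difference was -1.45 ± 0.12 (edgeR adjusted p = 4.93e-08), or -1.35 without those cells (edgeR adjusted p = 1.57e-08), and it was past the threshold in the shared-range form too, at -1.01 (edgeR adjusted p = 1.46e-05). Its relative BTG2 fell by 0.86 ± 0.13 on the log2 scale (edgeR adjusted p = 8.78e-05), and passed in the shared depth range as well (-0.68). CDKN1B, which encodes the CDK inhibitor p27, fell by 0.85 ± 0.19 (edgeR adjusted p = 0.00334), a call lost in the shared depth range (-0.46, edgeR adjusted p = 0.118). CDKN2C and CDKN2D lay higher, as given above, and CDKN1A and RB1 had -0.14 and 0.30 with no call.

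The D cyclins, which start the cycle in G1, were not raised. CCND3 fell by 0.62 ± 0.18 on the log2 scale (edgeR adjusted p = 0.0191), a call lost in the shared depth range (-0.25, edgeR adjusted p = 0.294). CCND2 had a log2 difference of -0.37 ± 0.18 over all T cells (edgeR adjusted p = 0.142), and -0.72 without cells holding epithelial UMIs, where it passed the test (edgeR adjusted p = 0.00429). It was -0.97 in the shared depth range (edgeR adjusted p = 0.000586). Over all T cells days 0 and 21 went the other way for CCND2, with 0.835 UMIs per 10000 against 0.658 on the former and 2.63 against 2.05 on the latter.

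Of 12 genes of the BCL2 family, 11 were tested, 4 fell and 0 rose. BCL2, MCL1 and BCL2A1, which protect from cell death, fell by 0.86 ± 0.16, 0.54 ± 0.12 and 0.94 ± 0.26 on the log2 scale, with edgeR adjusted p-values of 0.000682, 0.00386 and 0.014. PMAIP1, which promotes death, fell too, by 0.73 ± 0.20 (edgeR adjusted p = 0.0116). BAX, BAK1 and BID had log2 differences of 0.14, 0.21 and 0.22, none past the test. In the shared-range form MCL1 alone of the 11 was lower, at -0.41 (edgeR adjusted p = 0.0254).

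Of 14 genes that answer the T cell receptor within minutes to hours, 13 are in the files and 11 were tested, of which 4 fell and 0 rose, with or without the cells holding epithelial UMIs. EGR3, an early factor, was the fourth over all T cells at -1.12 (edgeR adjusted p = 0.0409) and lost its call without those cells at -0.87 (edgeR adjusted p = 0.0825), where its relative EGR1 gained one at -0.67 (edgeR adjusted p = 0.0279; -0.27 and adjusted p = 0.493 over all). JUN and FOS, which form the AP-1 factor, fell by 0.67 ± 0.11 and 0.91 ± 0.21 (edgeR adjusted p = 0.000324 and 0.00441), and CD69, the early activation marker, by 1.00 ± 0.19 (edgeR adjusted p = 0.000781). JUN, FOS and CD69 passed the shared-range form as well, at -0.32, -0.49 and -0.49. MYC, which drives growth after stimulation, had a log2 difference of -0.24 ± 0.20 that did not pass the test.

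The receptor machinery itself took a smaller share of the transcripts. Both classes passed the same gate of 2 CD3 UMIs, at median depths of 10148 UMIs in cycling and 3729.5 in non-cycling T cells. The gate thus let the deeper cycling cells in at a lower share of CD3, and how far this lowered the list was not tested. Of 12 genes of the T cell receptor complex and its kinases, 9 were tested, 5 fell and 0 rose, and without cells holding epithelial UMIs 4 of 9 fell, at a median log2 difference of -0.33 against -0.56 over all T cells. CD2, an adhesion receptor of T cells, fell by 1.07 ± 0.25 and CD27, a costimulatory receptor, by 1.23 ± 0.28. LCK fell by 0.61 ± 0.20, and LAT fell by 0.53 ± 0.19 over all T cells with no call without the cells holding epithelial UMIs (-0.29, edgeR adjusted p = 0.135). In the shared-range form CD2 alone was lower, at -0.65 (edgeR adjusted p = 0.0488). CD247, CD5, CD6 and FYN had log2 differences between -0.33 and -0.56 and passed none of these 3 forms, while CD247 and FYN passed when cells with UMIs of further B genes were left out (-0.68 and -0.49, edgeR adjusted p = 0.0304 and 0.0472).

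Cytokine receptors and their STAT5 targets showed 4 of 13 tested genes lower and 0 higher. Besides IL7R and BCL2 these were SOCS1, a brake on cytokine signals, at -0.93 ± 0.17 (edgeR adjusted p = 0.000644) and JAK3, the kinase of the common gamma chain, at -0.83 ± 0.21 (edgeR adjusted p = 0.00786). In the shared depth range 2 of 13 were lower, and JAK3 lost its call (-0.49, edgeR adjusted p = 0.16). IL2RA, the high affinity receptor chain for interleukin 2, was not raised in these cells. It stood at 0.286, 0.422, 1.08, 0.631, 0.517 and 0 UMIs per 10000 from day 0 to day 21 against 0.378, 0.830, 0.755, 0.857, 0.640 and 0.239, and its log2 difference of -0.41 ± 0.21 did not pass the test. Cycling cells were higher for IL2RA on day 3 alone.

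In unthinned counts, cycling T cells with UMIs of CD8A or CD8B alone outnumbered those with UMIs of CD4 alone. These are counts of detected transcripts and do not assign cells to a CD8 or CD4 class. CD8A or CD8B was found without CD4 in 58 of 193, CD4 without CD8 in 29, both in 8 and neither in 98. Over all ages non-cycling T cells had the same order, with 693 of CD8 alone and 463 of CD4 alone, but not on day 1 (163 and 200) or day 3 (48 and 50). On day 7 the cycling counts were 16 and 15. In cycling B cells, at a median depth of 6809 UMIs, CD8A or CD8B was found in 149 of 13078 cells and CD4 in 7. Neither coreceptor was found in 68.6% of the cycling T cells on day 0 and in 36.4% on day 21. Of the 35 cells of day 0, 16 held epithelial UMIs, and these classes were not counted without them. A missing coreceptor at this depth does not say that a cell lacks it. Gamma delta T cells, which often lack both, were not counted. TRDC is not in the files under that symbol, and no other gene was used to count them.

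CD4 transcripts were lower in cycling than in non-cycling T cells in 6 of 6 libraries. They stood at 0.0330, 0.155, 0.271, 0.508, 0.0470 and 0.309 UMIs per 10000 from day 0 to day 21, against 0.155, 0.328, 0.592, 0.649, 0.553 and 0.549 in non-cycling T cells. The log2 difference of CD4 was -1.20 ± 0.28 (edgeR adjusted p = 0.00487), and -0.99 without cells holding epithelial UMIs (edgeR adjusted p = 0.00898). In the shared-range form it was -0.80 and missed the threshold (edgeR adjusted p = 0.0838). The counts behind it were small, with 57 CD4 UMIs in all cycling T cells and 1 on day 14. On day 0 CD4 stood at 0.132 against 0.188 without cells holding epithelial UMIs.

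CD8A did not differ in that way. It stood at 0.121, 0.222, 0.788, 1.23, 1.32 and 3.71 UMIs per 10000 in cycling T cells from day 0 to day 21 and at 0.329, 0.199, 0.548, 1.19, 1.5 and 1.77 in non-cycling T cells. The levels were highest on day 21 in both classes, and cycling cells were higher on days 1, 3, 7 and 21, of which day 7 by little. On day 0 the order turned without cells holding epithelial UMIs, to 0.593 against 0.415. The log2 difference of CD8A was 0.00 ± 0.21 over all T cells (edgeR adjusted p = 0.994) and 0.27 without cells holding epithelial UMIs (edgeR adjusted p = 0.24), and that of CD8B 0.21 ± 0.43 (edgeR adjusted p = 0.769). In the shared depth range CD8A had 0.53 and CD8B 0.82 (edgeR adjusted p = 0.0644 and 0.184), and without further B genes and day 21 they had -0.41 and -0.48 (edgeR adjusted p = 0.323 and 0.608), so the direction of both hangs on the setting. The difference between CD4 and CD8A itself was not tested.

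The share of cells with a coreceptor UMI was also read at a common depth. Thinned to 1000 UMIs, 0, 3.23, 0, 6.90, 0 and 0% of the cycling T cells from day 0 to day 21 kept a CD4 UMI, and 0, 6.45, 5.71, 8.62, 21.7 and 27.3% one of CD8A or CD8B. In non-cycling T cells these were 2.25, 3.6, 4.17, 4.18, 4.85 and 6% for CD4 and 5.73, 3.53, 6.94, 12.8, 18.8 and 18% for CD8. Unthinned, the means over the libraries were 16.9% for CD4 and 36.5% for CD8 in cycling T cells, at a median of 10148 UMIs, and 14.3% and 22.6% in non-cycling T cells, at 3729.5. For CD4 this is the opposite order to its level, and no order is read from it. The exact 95% intervals of the thinned shares overlap between the classes at every age for both coreceptors, so no difference in these shares was detectable with 11 to 58 cycling T cells per library.

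PDCD1 and LAG3 were scarce in the cycling T cells up to day 3 and abundant from day 7. PDCD1, which lies on chromosome 15 at 140337353 to 140347493, stood at 0.0220 UMIs per 10000 (2 UMIs) at birth, 0 at day 1 and 0.271 at day 3 (exact Poisson 95% interval 0.135 to 0.485). It then stood at 2.36 (2 to 2.76) at day 7, 3.01 (2.32 to 3.84) at day 14 and 2.78 (1.65 to 4.40) at day 21. On day 1 a count of 0 allows up to 0.0666, which is 3 UMIs. The first 3 ages lie apart from the last 3, whose intervals overlap. LAG3, on chromosome 5 at 63929669 to 63935054, stood at 0.0549, 0, 0.222, 2.25, 1.5 and 3.71 in the same order. On day 0 PDCD1 and LAG3 each stood at 0.0659 (1 UMI) without cells holding epithelial UMIs, and both stayed at 0 at day 1.

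The same ages parted T cells that were not cycling. Non-cycling T cells held PDCD1 at 0.0522, 0.136, 0.222, 2.18, 2.50 and 1.98 UMIs per 10000 from day 0 to day 21 and LAG3 at 0.0348, 0.117, 0.252, 2.91, 1.90 and 2.65. Between the classes of 1 age, the intervals of PDCD1 overlap on days 0, 3, 7, 14 and 21, and on day 1 the non-cycling interval (0.111 to 0.164) lies above the 0.0666 that the count of 0 in the cycling cells allows. The log2 difference over the libraries was -0.01 ± 0.24 for PDCD1 and -0.24 ± 0.24 for LAG3, or 0.12 and -0.24 without cells holding epithelial UMIs, given without a test because these genes came with the choice of the cells. In cycling B cells PDCD1 stood at 0 to 0.0215 and LAG3 at 0 to 0.0078.

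Of the 92 cycling T cells of days 7, 14 and 21, 48 held PDCD1 and 50 held LAG3, with both in 27, PDCD1 alone in 21, LAG3 alone in 23 and neither in 21. Of the 101 cells of days 0, 1 and 3, 8 held PDCD1 and 7 held LAG3. These counts are unthinned and depend on depth. The mean share over the 6 libraries was 28.2% for PDCD1 and 31.5% for LAG3 unthinned, and 11.3% and 7.23% with each cell thinned to 1000 UMIs. PDCD1 was spread over cells, since on day 7 the 153 UMIs came from 31 of 58 cells with at most 16 in 1 cell.

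**Figure D5:**
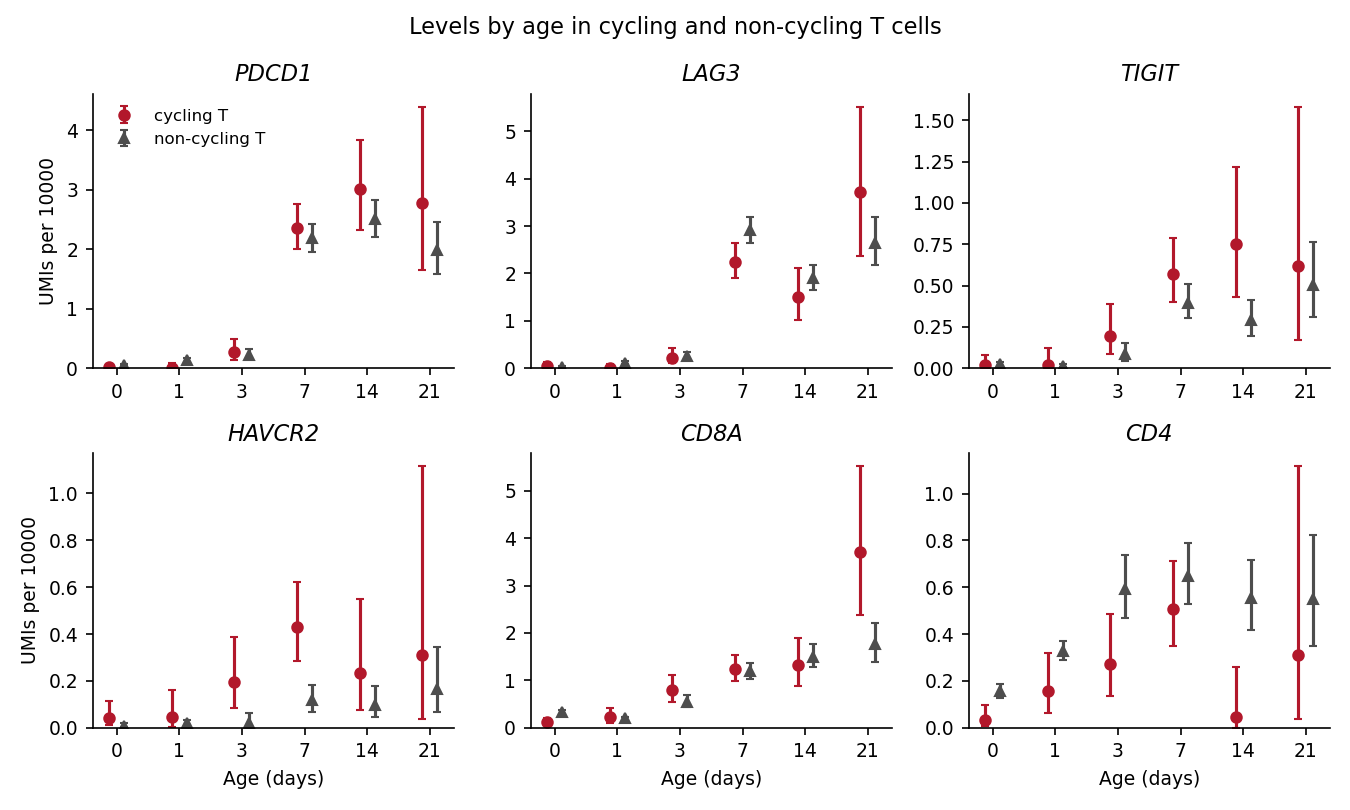
UMIs per 10000 (y axis) of the checkpoint receptors PDCD1, LAG3, TIGIT and HAVCR2 and of the coreceptors CD8A and CD4 are plotted by age in days (x axis) in cycling (circles) and non-cycling T cells (triangles), with exact Poisson 95% intervals of the counts, 1 library per age. PDCD1 and LAG3 stand at 0.271 or below up to day 3 and at 1.5 or above from day 7 in both classes, HAVCR2 is higher and CD4 lower in cycling T cells at each age.

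Of 11 checkpoint receptors on the list, PDCD1 and LAG3 among them, 8 were fitted, and over all T cells 2 fell and 0 rose. CD96 and CD244, receptors shared with natural killer cells, fell by 0.97 ± 0.24 and 1.06 ± 0.29 on the log2 scale (edgeR adjusted p = 0.00727 and 0.0118). Both calls were lost in the shared depth range (-0.24 and -0.49, edgeR adjusted p = 0.598 and 0.318), where 0 of 6 genes of the list were called. TIGIT stood at 0.0220, 0.0222, 0.197, 0.570, 0.752 and 0.618 UMIs per 10000 in cycling T cells from day 0 to day 21 against 0.0249, 0.0141, 0.0889, 0.396, 0.291 and 0.501. On day 0 TIGIT stood at 0.132 against 0.0271 without cells holding epithelial UMIs. Its log2 difference was 0.72 ± 0.27 (edgeR adjusted p = 0.0603), and without cells holding epithelial UMIs it was 0.88 and passed (edgeR adjusted p = 0.0227). It passed in no other form given for it, with 0.72 in the shared depth range, 0.71 without further B genes, 0.78 with the division gate at 3 UMIs and 0.69 in DESeq2 (adjusted p = 0.168, 0.189, 0.083 and 0.119).

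HAVCR2, the gene of the receptor TIM-3, had too few UMIs to be tested. It stood at 0.0439, 0.0444, 0.197, 0.431, 0.235 and 0.309 UMIs per 10000 in cycling T cells from day 0 to day 21 (49 UMIs in all) and at 0.00994, 0.0192, 0.0222, 0.117, 0.0969 and 0.167 in non-cycling T cells. Cycling cells were higher at each age, and the exact Poisson intervals lie apart on days 3 and 7 (0.0851 to 0.388 against 0.00458 to 0.0649, and 0.287 to 0.623 against 0.0693 to 0.185) and overlap at the other ages. On day 3 the 8 UMIs of HAVCR2 came from 3 cells, 6 of them from 1 cell, and the interval covers counting error only. On day 7 its 28 UMIs came from 10 cells. Cycling B cells held 0.0078 to 0.0294. Of the 23 cycling T cells with HAVCR2, 16 held CD8A or CD8B and 14 held LAG3.

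Granzyme B marked a few cells. GZMB, the main killing protease, stood at 0.593, 5.86, 0, 13.0, 4.56 and 4.64 UMIs per 10000 in cycling T cells from day 0 to day 21 against 1.86, 1.92, 0.0222, 1.46, 3.08 and 2.24 in non-cycling T cells. Day 0 turned without cells holding epithelial UMIs, to 2.7 against 2.29. On day 7 the 847 UMIs came from 9 of 58 cells, with 363 in 1 of them, and on day 14 all 97 came from 1 cell. The log2 difference of GZMB was 0.94 ± 0.44 over all T cells (edgeR adjusted p = 0.131), and 1.29 without cells holding epithelial UMIs, where it passed (edgeR adjusted p = 0.00249). GZMB was also past the threshold in the shared-range form, at 1.32 (edgeR adjusted p = 0.0411), but not without cells holding UMIs of further B genes, at 0.68 (edgeR adjusted p = 0.198), in DESeq2, at 0.67 (adjusted p = 0.522), or with the division gate at 3 UMIs, where it stood at -0.01 (edgeR adjusted p = 0.995). Of these the B gene and gate fits also lack day 21. Reads of granzyme genes can be shared among close paralogs.

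Of the 27 cycling T cells with GZMB, 14 held CD8A or CD8B and 1 held CD4. Of 12 cytotoxic genes tested 5 were lower and 0 higher over all T cells, 4 lower and 2 higher of 11 without cells holding epithelial UMIs, and 1 lower and 2 higher of 11 in the shared depth range. CTSW, a protease of cytotoxic lymphocytes, fell by 1.12 ± 0.16 (edgeR adjusted p = 5.49e-05), XCL1, a chemokine, by 1.05 ± 0.22, NKG7 by 0.78 ± 0.21 and CCL5, the most abundant chemokine of the list, by 1.05 ± 0.29 on the log2 scale. In the shared depth range CTSW was still lower (-0.54), while XCL1, NKG7 and CCL5 lost their calls (-0.53, -0.29 and -0.72, edgeR adjusted p = 0.0814, 0.284 and 0.0829). Without cells holding epithelial UMIs all 4 were called, CTSW at -0.77, XCL1 at -0.66, NKG7 at -0.46 and CCL5 at -0.82. CCL5 stood at 9.77, 22.4, 18.5, 42.3, 34.1 and 72.3 UMIs per 10000 in cycling T cells against 83.6, 20.4, 48.1, 55.6, 83.9 and 77.2. It was lower in the cycling cells on days 0, 3, 7, 14 and 21 and nearly level on day 1. On day 0, where the cells with epithelial UMIs carried most of the UMIs, CCL5 stood at 36.7 against 101 without them, and the whole list at 107 against 137, where it had been 23.7 against 113.

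GNLY, which encodes the pig's NK-lysin, was seen at the first ages. It stood at 5.63 and 18.7 UMIs per 10000 of cycling T cells on days 0 and 1, at 0 on days 3 and 21, and at 0.0462 and 1.93 on days 7 and 14, against 5.15, 4.23, 0, 0.214, 0.795 and 1.19 in non-cycling T cells from day 0 to day 21. On day 0 all 512 UMIs lay in 5 of 35 cells, and on day 1 the 841 UMIs lay in 5 of 31. GNLY stood at 33.8 and 22.5 on days 0 and 1, against 6.54 and 4.6, without cells holding epithelial UMIs. Its log2 difference was 0.54 ± 0.40 over all T cells and 1.39 without cells holding epithelial UMIs (edgeR adjusted p = 0.354 and 0.0097). It was 1.62 in the shared depth range (edgeR adjusted p = 0.000436), 0.04 with the division gate at 3 UMIs (edgeR adjusted p = 0.976) and -0.16 in DESeq2 (adjusted p = 0.929), so its direction hangs on the setting.

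IL22, the cytokine that feeds the repair and defence of the epithelium, was carried by 15 cycling T cells. It stood at 0 on days 0, 1 and 21 and at 0.714, 2.23 and 3.99 UMIs per 10000 on days 3, 7 and 14, against 0.0174, 0.185, 0.0518, 0.461, 2.93 and 0.0955 in non-cycling T cells from day 0 to day 21. Its exact Poisson intervals lie above those of non-cycling T cells on days 3 and 7 (0.478 to 1.03 against 0.0208 to 0.107, and 1.88 to 2.63 against 0.360 to 0.581). On day 1 the count of 0 allows up to 0.0666, below the non-cycling interval (0.156 to 0.217). On day 3 the 29 UMIs came from 4 of 35 cells, 13 of them from 1 cell, and of the 145 UMIs of day 7, 135 came from 3 cells. The intervals cover counting error only. The log2 difference of IL22 was 1.10 ± 0.47 over all T cells (edgeR adjusted p = 0.102) and 1.21 without cells holding epithelial UMIs (edgeR adjusted p = 0.0259). It was 0.69 in the shared depth range (edgeR adjusted p = 0.34), and DESeq2 turned its direction (-0.29, adjusted p = 0.9). IL22 is also made by innate lymphoid cells. Of 5 tested genes on the list of innate lymphoid and NK markers, IL22 among them, 2 fell and 0 rose over all T cells. KIT, 1 of the 2, fell by 1.32 ± 0.28 (edgeR adjusted p = 0.00224), a call lost in the shared depth range (-0.82, edgeR adjusted p = 0.0811), where 0 of 5 were called. The 9 markers of the list summed to 0.155 to 4.51 UMIs per 10000 in cycling and 1.58 to 6.68 in non-cycling T cells, with 8 detected in cycling T cells and KLRF1 at 0. That sum includes IL22 itself, and whether the cells with IL22 were innate lymphoid cells was not tested.

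Of 10 follicular helper genes on the list 7 were tested, of which 2 fell and 0 rose, at a median log2 difference of -0.0004. The summed follicular helper list was higher in cycling than in non-cycling T cells in 4 of 6 libraries and lower in 2, at 0.688 to 1.46 times. BCL6, the master factor of that fate, fell by 1.18 ± 0.20 on the log2 scale (edgeR adjusted p = 0.000295), and by 0.71 in the shared-range form (edgeR adjusted p = 0.0354). CXCR5, which leads cells into the follicle, fell by 1.30 ± 0.38 (edgeR adjusted p = 0.0179) on 15 UMIs in cycling T cells, and could not be fitted without the cells holding epithelial UMIs. ICOS, their costimulatory receptor, stood at 0.165, 0.133, 0.419, 0.970, 1.60 and 4.48 UMIs per 10000 in cycling T cells from day 0 to day 21 against 0.178, 0.308, 0.318, 1.35, 0.95 and 1.55 in non-cycling T cells. It was highest on day 21 in both classes, and its log2 difference of 0.14 ± 0.26 did not pass the test. ICOS stood on day 0 at 0.659 against 0.22 without cells holding epithelial UMIs, the other order to that over all T cells.

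FOXP3, the factor of regulatory T cells, gave 9 UMIs in all cycling T cells and was not tested. It stood at 0.0110, 0.0222, 0.0493, 0.0154, 0.188 and 0 UMIs per 10000 from day 0 to day 21 against 0.0236, 0.0538, 0.104, 0.240, 0.0291 and 0.143 in non-cycling T cells. The cycling value was above the other on day 14 alone, on 4 UMIs, and on day 0 too (0.0659 against 0.0305) without cells holding epithelial UMIs. Of 10 regulatory T cell genes 7 were tested, 1 fell and 0 rose, the former being IKZF2, the gene of Helios, at -0.66 ± 0.21 (edgeR adjusted p = 0.0321), a call lost without cells holding epithelial UMIs (-0.34, edgeR adjusted p = 0.157).

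Homing and residence genes fell in part. Of 13 on the list 9 were tested, with 6 lower and 0 higher, 4 of 8 lower without cells holding epithelial UMIs and 3 of 8 lower in the shared depth range. CCR9, the chemokine receptor that brings T cells to the small intestine, stood at 0.165, 0.178, 0.517, 0.570, 0.376 and 1.08 UMIs per 10000 in cycling T cells from day 0 to day 21 against 0.563, 0.260, 0.548, 0.818, 1.70 and 1.15. Cycling cells were lower at each age. Its log2 difference was -0.95 ± 0.24 (edgeR adjusted p = 0.00863), -0.84 in the shared-range form (edgeR adjusted p = 0.014) and -0.65 without cells holding epithelial UMIs (edgeR adjusted p = 0.0292). The call was lost without cells holding further B genes, at -0.67 (edgeR adjusted p = 0.091). ITGB7, a chain of the gut homing integrin, fell by 1.05 ± 0.23 (edgeR adjusted p = 0.00309) and ITGAE, which binds the E-cadherin of the epithelium, by 0.75 ± 0.26 (edgeR adjusted p = 0.0393), the latter with no call without the cells holding epithelial UMIs (-0.52, edgeR adjusted p = 0.0658).

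Of 16 lineage transcription factors 14 were tested, with 7 lower and 0 higher. Besides BACH2, LEF1, SATB1 and TCF7 these were RUNX3 at -0.82 ± 0.26, ID2 at -0.72 ± 0.18 and ID3 at -0.98 ± 0.28. In the shared depth range 2 of 14 were lower, and RUNX3, ID2 and ID3 lost their calls in that fit of 5 libraries (-0.42, -0.45 and -0.77, edgeR adjusted p = 0.243, 0.135 and 0.0843). TBX21, GATA3, BATF and PRDM1, factors of effector fates, had log2 differences between -0.41 and 0.09 and did not pass the test. Of 7 tested MHC class II genes 2 fell, SLA-DMA by 1.15 ± 0.24 and SLA-DMB by 1.10 ± 0.36, the latter with no call without the cells holding epithelial UMIs (-0.64, edgeR adjusted p = 0.133), while SLA-DRA and SLA-DQA1 had -0.32 and -0.33 with no call. Reads of class II genes can be shared among paralogs.

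Outside the lists, 10 called genes with the largest log2 difference downward were lower in all 6 libraries. G0S2, an inhibitor of fat breakdown, led at -3.51 ± 0.41 (edgeR adjusted p = 4.9e-06), followed by TCP11L2 at -2.64 ± 0.39 and C8H4orf48 at -2.53 ± 0.36. PIK3IP1, a brake on PI3 kinase in resting T cells, fell by 2.20 ± 0.32 on the log2 scale (edgeR adjusted p = 5.78e-05) and CD7, a surface protein of T and NK cells, by 2.14 ± 0.27 (edgeR adjusted p = 8.96e-06). NAPSA, CYS1, FADS3, LOC100152327 and LOC100519314 lay between -1.93 and -2.30. PIK3IP1, CD7, CYS1, LOC100152327 and LOC100519314 were past the threshold in the shared-range form, from -1.02 for CD7 to -1.86 for LOC100152327. FADS3 lost its call there (-0.92, edgeR adjusted p = 0.159), and was higher in 1 library without the cells holding epithelial UMIs. C8H4orf48 could not be fitted in the shared-range form, and G0S2, TCP11L2 and NAPSA could not be fitted without the cells holding epithelial UMIs or in the shared-range form. Without cells holding further B genes, and without day 21, LOC100152327 stood at -1.47 (edgeR adjusted p = 0.00201), against -2.30 over all T cells. The others of these genes that were fitted there lay between -1.82 and -3.03.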

How the data were processed

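The deposited files hold raw UMI counts, which the authors made by droplet sequencing with 10x Genomics 3' chemistry, 1 library per age, with no filter on barcodes (6794880 barcodes and 20648 genes in each). The submitters' processing notes name Cell Ranger 3.1.0, STAR and the build susScr11, and the labels and the methods of the study name different versions of the kit. The files do not say which piglet a barcode came from.

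Members and lists were chosen with earlier results of these data known, PDCD1 and LAG3 among them. Barcodes with at least 1000 UMIs and 500 genes were kept and gated as described. Levels are UMIs summed over the cells of a class and library per 10000 UMIs of that class, with exact Poisson 95% intervals. Shares have exact Clopper-Pearson 95% intervals, and shares of cells with a UMI were also read with each cell thinned to 1000 UMIs. Each thinned reading is a single random draw, and the intervals do not cover the noise of that draw. Intervals cover counting error only. A count of 0 was given a limit of 3 counts.

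Summed counts of cycling and non-cycling T cells were compared with edgeR 4.0.16 (R 4.3.3): filterByExpr, TMM factors, the library as a block, glmQLFit and glmQLFTest, and Benjamini-Hochberg adjustment over all genes fitted, called below 0.05. A library with fewer than 10 cycling T cells was left out of an alternative. The 6 libraries are the replicates of this comparison and each is a different age, so its p-values measure whether a difference recurs over ages. In simulated counts with 200 of 6443 genes changed 4-fold, 90% were recovered, all in the right direction, and 5.26% of the calls were false. Smaller changes, a larger share of changed genes and mixed cells were not simulated, so these rates do not carry over to such cases. G1/S and G2/M lists came from Seurat 5.3.0. DESeq2 1.42.0 was an alternative, beside RLE factors, no filter on low counts, no library block, other gates, a shared depth range (cells of both classes between the 10th and 90th percentile of the UMIs of a library's cycling T cells), thinning, removal of ranked doublets and leaving out each library. Leaving out cells with epithelial UMIs and keeping those with MS4A1 or PAX5 were chosen after seeing the data. The named genes are those of the rule, those of the lists whose role is described, and the 10 called genes off the lists with the largest change each way that kept their direction in every library. Gene positions come from the RefSeq table of Sscrofa11.1, in which all 20648 symbols matched. ZAP70, TRDC, NR4A1, CDK6 and SLC7A5 were not analysed here, nor were promoter sequences. Some genes of the lists are counted with their list but not reported singly here.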

Additional observations from a re-analysis of the deposited data

Results flagged for a closer look

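Signal lay outside the cells described. Of 359 barcodes that met the CD3 and the division gates, 166 carried a UMI of MS4A1 or PAX5 and were left out, which is 46.2% (exact Clopper-Pearson 95% interval 41.0 to 51.5). Among barcodes with CD3 UMIs and none of TOP2A and MKI67 it was 547 of 4995, or 11.0%. From the youngest to the oldest age the share among the former was 12.5, 13.9, 30.0, 41.4, 76.3 and 70.3%, and among the latter 6.21, 6.10, 16.8, 24.0, 19.3 and 37.0%. Cycling B cells numbered 81 on day 0 and 6286 on day 14. Whether these barcodes hold a T cell and a B cell, a T cell with free B cell RNA or a B cell with free CD3 RNA was not tested, so the number of cycling T cells on days 14 and 21 depends on the B cell rule.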

How the results depend on the processing

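The mean share of cycling T cells over the libraries, 6.64%, was 2.13% with T cells thinned before the gate, 5.72% without cells holding further B genes, 5.23% without ranked doublets 6.46% without cells holding epithelial UMIs and 10.5% with barcodes holding MS4A1 or PAX5 kept. The 1675 called genes became 895 (510 higher, 385 lower) in the shared depth range and 671 (465 higher, 206 lower) without the library block, which is the fit that ignores the pairing of classes within a library. Without ranked doublets 520 were lower, in a fit that also lost days 14 and 21 for want of cells, and without the filter on low counts 732 were higher and 1711 lower of 16242. Leaving out each library gave 1284 to 1596 calls, 579 to 773 higher and 611 to 823 lower. The mean share of cells with CD4 at 1000 UMIs, 1.69%, was 16.9% unthinned, 2.66% at 2000 UMIs and 0.575% with the division gate at 3 UMIs. That with CD8A or CD8B, 11.6%, was 36.5%, 18.5% and 14.0% in that order, and 7.79% without cells holding further B genes. That last setting gave a mean level of 1.75 for PDCD1 (1.41 over all) and 1.67 for LAG3 (1.29 over all), in UMIs per 10000, and the gate at 3 UMIs gave 1.03 for LAG3. The causes were not tested. Of 113 called genes, which are those of the lists other than the G1/S and G2/M ones together with the leading genes outside them, 58 stayed called in the shared depth range, 45 did not and 10 could not be fitted, while 91 stayed called without cells holding epithelial UMIs, and none turned its direction in any alternative run. Depth limits what can be said of day 21, with 11 cycling T cells.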
